A study of Mus musculus with 6 samples.

Results

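Transforming growth factor beta (TGF-beta) signalling was followed through 10 genes in mouse hepatic stellate cells, the liver pericytes that store vitamin A. The genes were the ligands Tgfb1 and Tgfb3, the receptors Tgfbr1 and Tgfbr2, the transcription factor gene Smad3, and the inhibitor genes Smad7, Ski, Skil, Bambi and Pmepa1. They were taken by symbol, by a rule that uses no measured value but was written with earlier results of these data known, from 24940 genes with exon counts. All 10 were among the 12687 genes with enough counts to test. The cells were primary cultures from female C57BL/6JBomTac mice. In 3 libraries the cells had received obeticholic acid (OCA) at 10 µM, a modified bile acid and agonist of the nuclear bile acid receptor FXR. In the other 3 they had received only dimethyl sulfoxide (DMSO), the vehicle. Exposure began 2 days after isolation and lasted 6 hours. No TGF-beta, transgene or injury is named for either group, so the comparison is of OCA with vehicle in cells taken into culture.

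TGF-beta ligands are secreted in a latent complex and, once released, bind the type II receptor, which recruits and phosphorylates the type I receptor. The active receptor phosphorylates Smad proteins that enter the nucleus with Smad4 and switch on matrix genes, and also genes for inhibitors that limit the signal. In the liver the pathway is known as a main driver of stellate cell activation, the change from a quiescent pericyte to a matrix-producing myofibroblast.

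Among the inhibitors, Skil and Bambi were lower under OCA and Ski was higher. Skil fell by 30.4% and Bambi by 24.8%, while Ski rose by 20.1%. Skil and Bambi were called in all 6 fits that left out 1 library, but Ski in only 1 of the 6. The ligands, the receptors, Smad3, Smad7 and Pmepa1 did not pass the test. In all, 3 of the 10 genes were called at an adjusted p under 0.05, against 5.20% of all genes tested; 1 was higher, against 2.18%, and 2 were lower, against 3.03%. The 3 libraries of a group did not overlap those of the other in 7 of the 10, 3 higher and 4 lower under OCA, against 23.0% of all genes tested. The median log2 fold change was -0.13 over the 10 genes and 0.00076 over all tested genes.

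Levels are given as CPM, counts relative to library size after scaling by the trimmed mean of M-values (TMM), and each log2 fold change (OCA over DMSO) with its standard error (SE). The test was edgeR's quasi-likelihood test, adjusted over all 12687 genes by the Benjamini-Hochberg method, and 95% intervals are from the same fit without adjustment. Library totals ranged from 12260882 to 16336240 counts, and the 10 genes had between 598 and 6406 counts per library, so none was near the detection limit. The labels do not say whether replicate libraries came from different animals or dishes, so p-values reflect the spread among these libraries alone, and that spread may be technical. Libraries of a group differed along transcript length, and OCA B and DMSO A lay above their group means for long transcripts. The median deviation from the group mean was taken among the 1586 longest tested transcripts, of 5780 bases or more. On the log2 scale it was 0.06 in OCA B and 0.09 in DMSO A. In DMSO C it was -0.07, larger in size than in OCA B. In OCA A, OCA C and DMSO B it lay between -0.04 and -0.02. With offsets for such trends the transcriptome split changed from 276 higher and 384 lower genes to 339 and 256, and the calls among the 10 genes were the same 3.

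The stellate label was checked against markers. All 10 stellate markers (among them Lrat, Des, Pdgfrb and Reln) averaged 1 CPM or more, and their summed level was between 1729 and 2038 CPM in OCA libraries and between 1917 and 2063 CPM in DMSO libraries; Lhx2 was called higher and Reln lower, but without OCA A, OCA C or DMSO A no stellate marker was called, none was lower with DESeq2, robust estimation or length and density offsets, and none was higher with upper-quartile scaling or without TMM. Endothelial markers summed to between 3.61 and 4.17 CPM in OCA and between 4.29 and 4.98 CPM in DMSO, with 1 of 8 at 1 CPM or more. Macrophage and leukocyte markers summed to at most 11.6 CPM (2 of 10 at 1 CPM or more), hepatocyte markers to at most 6.45 CPM (1 of 8, with Tat at 0) and cholangiocyte markers to at most 1.07 CPM (0 of 4, with Krt7 and Cftr at 0). Mesothelial and portal fibroblast markers summed to between 4.28 and 5.63 CPM in OCA and between 3.01 and 3.51 CPM in DMSO, with Eln the only marker of 5 at 1 CPM or more and Thy1 and Gpm6a at 0. Few of these other cell type markers had enough counts to test: 2 endothelial, 2 macrophage and leukocyte, 1 hepatocyte, 1 cholangiocyte and Eln. None of those tested was called in the main fit, and the rest could not be called. Endothelial Ptprb was lower in every OCA library, averaging 1.47 CPM against 2.99 CPM for vehicle (log2 fold change -1.06, adjusted p = 0.111). The other, Oit3, overlapped between groups (log2 fold change 1.15, adjusted p = 0.374). Eln was higher in every OCA library (log2 fold change 0.63, adjusted p = 0.212). The part of the small endothelial and Eln differences in the results was not tested.

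**Figure D1:**
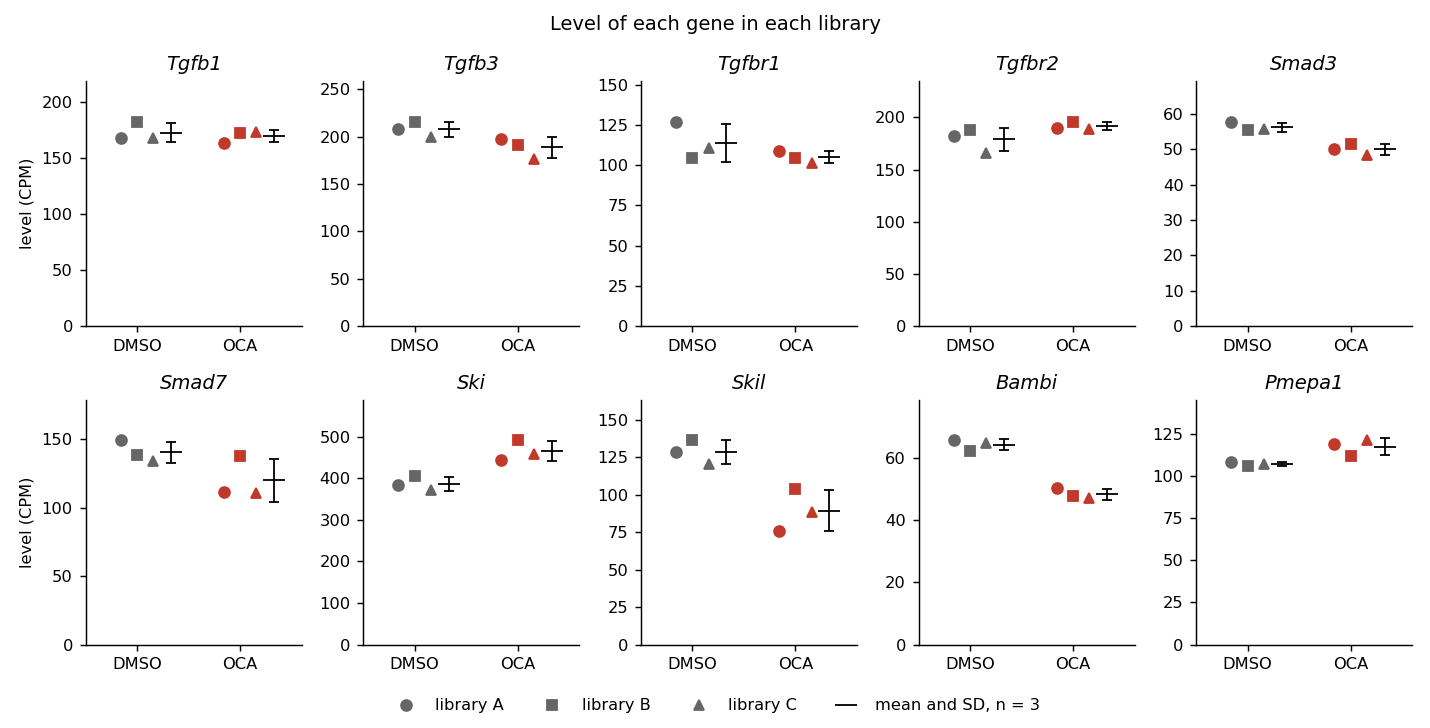
Level of each of the 10 genes in CPM (vertical axes, linear from 0) in the 3 DMSO and 3 OCA libraries; points are libraries A, B and C and black bars the mean and SD (n = 3). Skil, Bambi, Tgfb3 and Smad3 lie lower in every OCA library than in any DMSO library, and Ski, Tgfbr2 and Pmepa1 lie higher. Of these, only Skil, Bambi and Ski were called. Tgfb1, Tgfbr1 and Smad7 overlap between groups.

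The ligands come first. Tgfb1, the isoform most studied in liver fibrosis (NM_011577, mm10 chromosome 7, 25687002 to 25705077, plus strand), had 168, 182 and 167 CPM in DMSO A, B and C and 163, 173 and 173 CPM in OCA A, B and C. The groups overlapped, and the log2 fold change was -0.02 (SE 0.06, 95% interval -0.16 to 0.11, adjusted p = 0.874). Its sign turned when OCA A or DMSO B was left out, and the values stayed between -0.04 and 0.02. Since whole-culture RNA was measured, fewer cells of a type and less RNA per cell cannot be told apart for this gene or those that follow.

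Tgfb3, another isoform that signals through the same receptors (NM_009368, chromosome 12, 86056743 to 86079041, minus strand), had 209, 216 and 199 CPM in DMSO A, B and C and 198, 191 and 177 CPM in OCA A, B and C. Every OCA library lay below every DMSO library, though DMSO C and OCA A were close. Its log2 fold change of -0.14 (SE 0.07, 95% interval -0.28 to -0.0014) did not pass the test (adjusted p = 0.258). In the GENCODE M21 annotation of the same build, 257 and 163 of its 3383 exonic bases are shared with opposite-strand transcripts, Gm48008 and Gm37804, that have no row of their own in the table. For strand use in counting, no setting was given in the sources used here, and reads of such transcripts could not be told apart from those of Tgfb3. No exon of another annotated gene overlapped the exons of the other 9 genes.

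The receptors did not pass the test in either direction. Tgfbr1, the type I receptor kinase also called ALK5 (NM_009370, chromosome 4, 47353222 to 47414924, plus strand), had 127, 104 and 111 CPM in DMSO A, B and C and 109, 105 and 101 CPM in OCA A, B and C. DMSO A was the highest library and the others overlapped (log2 fold change -0.12, SE 0.08, 95% interval -0.28 to 0.04, adjusted p = 0.408). Without DMSO A the log2 fold change was -0.03. Tgfbr2, the type II receptor kinase that binds ligand (NM_009371, chromosome 9, 116087695 to 116175363, minus strand), had 183, 188 and 166 CPM in DMSO A, B and C and 190, 196 and 189 CPM in OCA A, B and C. Its OCA libraries all lay above its DMSO libraries, by a narrow margin over DMSO B, and the log2 fold change was 0.10 (SE 0.07, 95% interval -0.04 to 0.24, adjusted p = 0.433). Without DMSO C it was 0.05.

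Smad3 encodes the receptor-activated Smad that binds DNA at TGF-beta target genes (NM_016769, chromosome 9, 63646767 to 63757994, minus strand). It had 57.8, 55.3 and 55.7 CPM in DMSO A, B and C and 50.2, 51.5 and 48.4 CPM in OCA A, B and C. The groups did not overlap, and the spread within each was small, with a coefficient of variation of 2.32% in DMSO and 3.06% in OCA. Smad3 had a log2 fold change of -0.17 (SE 0.08, 95% interval -0.33 to -0.0082), an unadjusted p of 0.0404 by edgeR's quasi-likelihood test, and did not pass after adjustment (adjusted p = 0.237).

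The inhibitors fall into those that act at the receptor and those that act in the nucleus. Bambi encodes a transmembrane pseudoreceptor that resembles a type I receptor but lacks the kinase, and so blocks signalling (NM_026505, chromosome 18, 3507957 to 3516404, plus strand). It had 65.6, 62.2 and 64.6 CPM in DMSO A, B and C and 50.2, 47.7 and 46.9 CPM in OCA A, B and C. The groups were far apart for their spread, with the lowest DMSO library well above the highest OCA library. Bambi's log2 fold change was -0.41 (SE 0.08, 95% interval -0.57 to -0.25, adjusted p = 0.00279). Bambi was called in all 6 fits that left out 1 library, with log2 fold changes from -0.44 to -0.39.

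Smad7 encodes the inhibitory Smad that TGF-beta itself induces and that directs the receptor to degradation (NM_001042660, chromosome 18, 75367365 to 75395934, plus strand). It had 149, 138 and 134 CPM in DMSO A, B and C and 111, 138 and 111 CPM in OCA A, B and C. OCA B was level with DMSO B, while OCA A and OCA C lay below all DMSO libraries. The log2 fold change of -0.23 (SE 0.08, 95% interval -0.40 to -0.06) did not pass the test (adjusted p = 0.111). Without OCA B it was -0.34 and was called (adjusted p = 0.00262), as it was at -0.30 without both OCA B and DMSO A (adjusted p = 0.00319). With all 6 libraries but no low-count filter it was -0.24 and also called (adjusted p = 0.0225), so its call turns on OCA B and on the filter. In the other 5 fits that left out 1 library the adjusted p lay between 0.162 and 0.383.

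Pmepa1 encodes a membrane protein, induced by TGF-beta, that keeps receptor-activated Smads from the receptor (NM_022995, chromosome 2, 173224465 to 173276533, minus strand). It had 109, 106 and 108 CPM in DMSO A, B and C and 119, 112 and 121 CPM in OCA A, B and C. All OCA libraries lay above all DMSO libraries, with OCA B nearest to them. The log2 fold change was 0.13 (SE 0.06, 95% interval -0.0059 to 0.26, adjusted p = 0.286), so it was not called, in contrast to Bambi; the difference between these 2 genes was not tested.

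Ski and Skil encode related nuclear corepressors, Ski and SnoN, that bind Smad complexes and hold target genes silent until TGF-beta triggers their breakdown. Skil (NM_011386, chromosome 3, 31095058 to 31122923, plus strand) had 128, 136 and 120.5 CPM in DMSO A, B and C and 75.8, 103 and 88.5 CPM in OCA A, B and C. OCA B was the highest OCA library, and it still lay below every DMSO library. The log2 fold change was -0.52 (SE 0.09, 95% interval -0.71 to -0.34, adjusted p = 0.00117), the largest in size among the 10 genes. It was called in all 6 fits that left out 1 library, from -0.64 without OCA B to -0.42 without OCA A. At 7057 bases Skil was the only one of the 10 transcripts among the 1586 longest, in which OCA B and DMSO A lay above their group means. With offsets for transcript length and counts per base its log2 fold change was -0.41 (adjusted p = 0.00862).

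Ski (NM_011385, chromosome 4, 155154075 to 155222535, minus strand) moved the other way. It had 383, 405 and 373 CPM in DMSO A, B and C and 445, 491 and 458 CPM in OCA A, B and C. Library B was the highest in both groups, and no OCA library reached down to the DMSO range. The log2 fold change was 0.26 (SE 0.07, 95% interval 0.12 to 0.41, adjusted p = 0.0344). The direction held in all 6 fits that left out 1 library, from 0.22 to 0.30, but the call was kept only without DMSO B (adjusted p = 0.0161). It was lost without OCA A (adjusted p = 0.0758), OCA B (0.104) or OCA C (0.109), as it was without DMSO A (0.109), without DMSO C (0.165) and without both OCA B and DMSO A (0.188), while DESeq2 (adjusted p = 0.00186) and limma-voom (0.0258) called it on all 6 libraries.

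**Figure D2:**
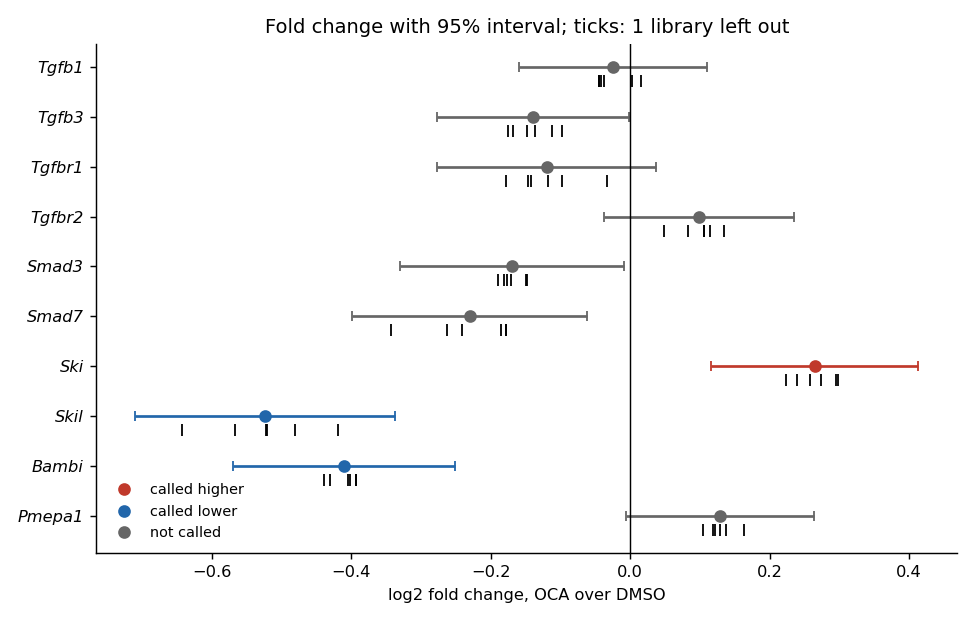
Log2 fold change of OCA over DMSO (horizontal axis) for the 10 genes, with bars for the unadjusted 95% interval and black ticks for the 6 fits that each left out 1 library. The intervals of Skil (-0.71 to -0.34), Bambi (-0.57 to -0.25) and Ski (0.12 to 0.41) lie farthest from 0; those of Tgfb3, Smad3 and Smad7 also exclude 0, but these genes did not pass after adjustment.

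Levels of different genes were compared per kilobase of exon (RPKM, CPM divided by the transcript length in kilobases). In DMSO the order from the highest was Tgfb1 at 79.6 ± 3.90 RPKM (SD, n = 3), Ski at 70.9 ± 2.99, Tgfb3 at 61.6 ± 2.43, Tgfbr2 at 37.4 ± 2.33, Smad7 at 31.7 ± 1.74, Pmepa1 at 23.8 ± 0.274, Tgfbr1 at 19.9 ± 2.04, Skil at 18.2 ± 1.11, Bambi at 12.7 ± 0.345 and Smad3 at 11.1 ± 0.257 RPKM. Tgfbr1 and Skil were the only neighbours in this order whose DMSO libraries overlapped. Under OCA Ski took the top place, at 85.2 ± 4.37 RPKM against 78.2 ± 2.61 RPKM for Tgfb1, and Smad3, at 9.85 ± 0.301 RPKM, ranked above Bambi, at 9.59 ± 0.340 RPKM. The Ski and Tgfb1 libraries did not overlap under OCA, whereas those of Smad3 and Bambi did. The transcript length of a row is that of 1 RefSeq transcript, so levels per length are approximate where cells use another transcript of the gene.

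**Figure D3:**
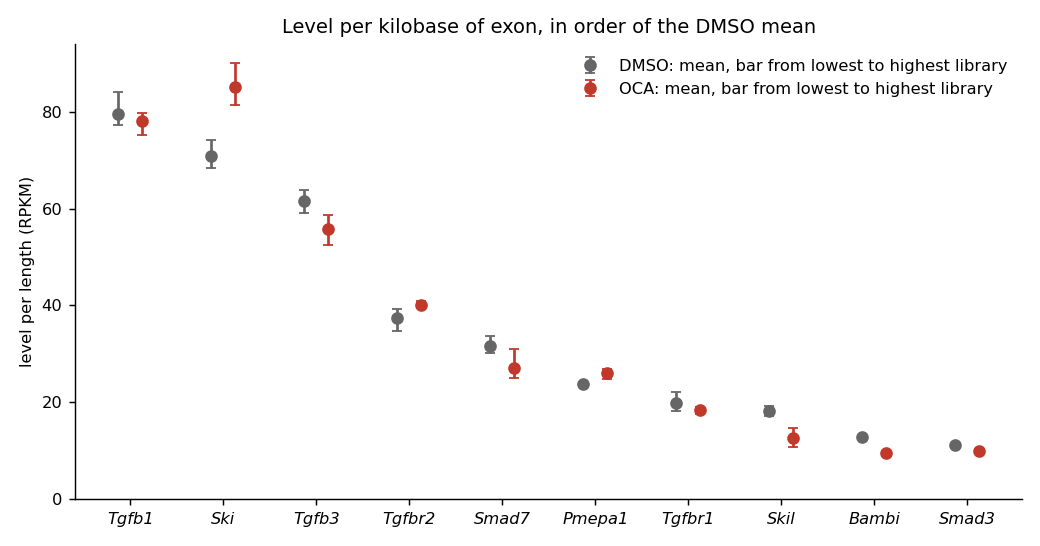
Level per kilobase of exon (vertical axis, RPKM, linear from 0) of the 10 genes in order of the DMSO mean; points are means of 3 libraries and bars run from the lowest to the highest library. Tgfb1 is highest in DMSO (79.6 RPKM), and Ski is highest under OCA (85.2 RPKM).

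Related genes were also set against each other within each library, where the scaling between libraries cancels. The Skil to Ski ratio of counts per base was 0.259, 0.260 and 0.250 in DMSO A, B and C and 0.132, 0.163 and 0.149 in OCA A, B and C. The DMSO values were nearly the same and all lay well above the OCA values. The mean log2 ratio was lower by 0.80 under OCA (-2.39 ± 0.15 against -1.59 ± 0.03 on counts, SD, n = 3). A two-sided exact permutation test gave p = 0.1, the smallest that 3 against 3 libraries can give. Leaving out any 1 library gave differences from -0.87 to -0.72. Every OCA library was below every DMSO library for Skil and above it for Ski. This p therefore followed from those levels and adds no evidence to them. A ratio also keeps any trend with transcript length, and the Skil transcript is longer than that of Ski. Skil made up 20.4% ± 0.358 of the summed Ski and Skil level per length in DMSO and 12.9% ± 1.19 under OCA (SD, n = 3). The sum of both corepressors was 89.1 ± 4.08 RPKM in DMSO and 97.8 ± 6.30 RPKM under OCA, with 1 DMSO library inside the OCA range.

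The ratio of the pseudoreceptor Bambi to the type I receptor Tgfbr1 was 0.589, 0.680 and 0.666 per base in DMSO A, B and C and 0.526, 0.519 and 0.528 in OCA A, B and C. All OCA values were lower, and DMSO A, the library with the highest Tgfbr1 level, came nearest to them. The difference in mean log2 ratio was -0.30 (exact permutation p = 0.1, two-sided, the smallest possible). The ratio uses the same Bambi levels that already separated the groups, so this p is not independent evidence. The Tgfb3 to Tgfb1 ratio overlapped between groups, with 0.798, 0.760 and 0.764 in DMSO and 0.780, 0.711 and 0.657 in OCA, in the order A, B and C, and a difference of -0.12 on the log2 scale (exact permutation p = 0.3, two-sided). With the third isoform Tgfb2 counted in (68.8 ± 9.94 CPM in DMSO and 70.4 ± 6.39 CPM in OCA, adjusted p = 0.895), Tgfb1 made up 51.5% ± 1.3 of the ligand level per length in DMSO and 53.0% ± 2.30 under OCA, Tgfb3 39.9% ± 0.0755 and 37.8% ± 1.6, and Tgfb2 8.59% ± 1.23 and 9.19% ± 0.747.

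**Figure D4:**
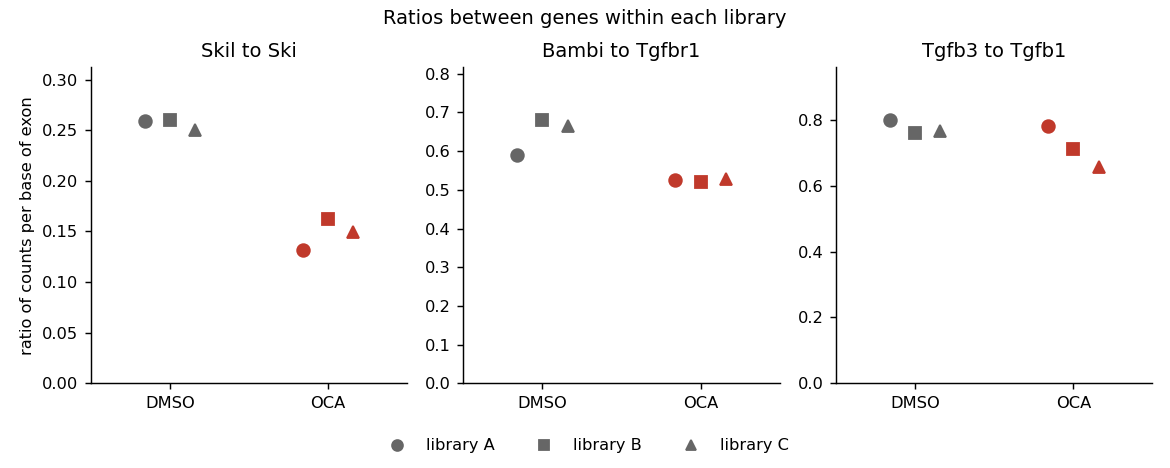
Ratio of counts per base of exon between genes of the same library (vertical axes, linear from 0) in the 3 DMSO and 3 OCA libraries; points are libraries A, B and C. Skil to Ski lies near 0.25 in DMSO and between 0.132 and 0.163 under OCA; Bambi to Tgfbr1 is also lower in every OCA library, and Tgfb3 to Tgfb1 overlaps.

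Promoter sequences from RefSeq (GRCm38.p6, the same build as mm10), 250 bases before to 50 after the annotated start, matched 5 of the 10 genes: Tgfb1, Tgfbr1, Tgfbr2, Smad3 and Ski. Ski is shown because it is the only called gene among them and has the most GC-rich window of the 5, and Tgfbr2 because its window holds a Smad-binding motif. The capitals mark the match to GTCTG on either strand, and the 250 bases before the start come first.
Ski, chr4:155222486-155222785, minus strand: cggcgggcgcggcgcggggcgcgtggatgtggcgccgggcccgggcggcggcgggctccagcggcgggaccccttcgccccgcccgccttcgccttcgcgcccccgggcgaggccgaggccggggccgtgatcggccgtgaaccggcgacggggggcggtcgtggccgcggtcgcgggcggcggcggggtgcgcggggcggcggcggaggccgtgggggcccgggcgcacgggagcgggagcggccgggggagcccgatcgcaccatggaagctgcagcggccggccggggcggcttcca
Tgfbr2, chr9:116175314-116175613, minus strand: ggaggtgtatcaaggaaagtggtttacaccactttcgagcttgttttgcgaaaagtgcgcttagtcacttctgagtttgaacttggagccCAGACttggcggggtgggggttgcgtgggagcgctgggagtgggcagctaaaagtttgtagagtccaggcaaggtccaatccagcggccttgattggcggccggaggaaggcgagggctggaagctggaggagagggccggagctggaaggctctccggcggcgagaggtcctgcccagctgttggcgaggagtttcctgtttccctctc

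The Ski window had a GC content of 85.3% and 59 CG pairs, at or above 99.9% of the 32851 mouse windows in both measures, against medians of 52.7% and 7. The windows at the start used in the count table had 77.0% GC for Tgfb1, 74.7% for Tgfbr1, 67.7% for Smad3 and 59.0% for Tgfbr2. Motifs were searched on both strands. The short Smad motif GTCTG was found in Tgfbr2, 160 bases before the start, and in a window 32994 bases downstream that RefSeq gives as another start of Tgfbr1; 49.6% of all windows hold it. The palindromic Smad box GTCTAGAC (0.213% of all windows), the CAGA box AGCCAGACA, which contains the short motif (0.387%), and the inverted repeat bound by FXR, AGGTCA and TGACCT parted by any 1 base (0.00913%), were found in none of the 5 genes' windows. A match is a description of the letters in the window and not a measured binding site.

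For each called gene, the 5 genes with the most similar pattern were sought among the 10735 tested genes with a mean of at least 5 CPM, by the root-mean-square distance between log2 CPM values over the 6 libraries, each centred on its mean. Nearest to Skil was Snai1, a zinc finger repressor of epithelial genes that TGF-beta induces, at a distance of 0.03, followed by Skida1, Brwd3, Dock4 and Arhgap11a at up to 0.06. Snai1 had a log2 fold change of -0.54 (adjusted p = 0.00182), at a transcript length of 1613 bases. Nearest to Bambi were Traf5 and, at 0.03, Nr1h4, the gene of the OCA receptor FXR itself, followed by Pxdc1, Plcxd2 and Gpnmb. Nr1h4 went from 84.0 CPM in DMSO to 65.8 CPM in OCA. Nearest to Ski were Bscl2, the cyclin-dependent kinase inhibitor gene Cdkn2b, Emp2, Ttyh2 and Glt8d2, at distances between 0.03 and 0.04. These distances describe 6 libraries that share 1 contrast.

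Around these 10 genes, 98 other genes of the pathway and its targets were listed by role. Of the 88 that were tested, 4 rose, 8 fell and 76 did not pass, with a median log2 fold change of -0.08, against 2.18% higher and 3.03% lower among all genes tested. The lower count moved widely: it fell to 3 when OCA A was left out, to 4 for OCA C or DMSO A, to 5 for DMSO B and to 6 for DMSO C, and was 5 with robust estimation, but 21 without OCA B, 22 without OCA B and DMSO A, and 19 with no low-count filter. The higher count lay between 2 and 5 in these fits. The lower count over all genes, 384 in the main fit, moved in the same direction in each of these fits. It was 104 when OCA A or DMSO A was left out, 126 for OCA C, 202 for DMSO B and 230 for DMSO C. Robust estimation gave 346, leaving out OCA B 758 and no low-count filter 703. Over all genes, 339 were higher and 605 lower without OCA B and DMSO A. The called counts of the lists that follow have the same background shares, 2.18% higher and 3.03% lower, and include few genes each. At an unadjusted p under 0.05 by edgeR's quasi-likelihood test, 1048 of all tested genes were higher and 1357 lower, or 19.0% in either direction. Over all tested genes DESeq2 called 286 higher and 380 lower, and limma-voom 275 and 403. The other ligands of the same Smad branch had 0 of 5 tested members called by edgeR, with 1 lower at an unadjusted p under 0.05 and 1 lower by DESeq2 and by limma-voom. That gene was Inhba, which encodes the activin A subunit, with a mean of 413 ± 21.0 CPM in DMSO against 344 ± 33.6 CPM under OCA, a log2 fold change of -0.26 (adjusted p = 0.0535 by edgeR, 0.0135 by DESeq2 and 0.0383 by limma-voom). Other receptors and coreceptors had 0 of 8 called, with 2 lower at an unadjusted p under 0.05 and 0 by DESeq2 and limma-voom. The most abundant of them, the coreceptor gene Eng (endoglin), had 583 ± 63.8 CPM in DMSO and 585 ± 42.2 CPM under OCA (adjusted p = 0.984). The coreceptor betaglycan, encoded by Tgfbr3, had 253 ± 23.6 and 213 ± 30.8 CPM (log2 fold change -0.25, adjusted p = 0.123; without OCA B -0.37, adjusted p = 0.00366). Smads and receptor adaptors had 0 of 6 called, 0 at an unadjusted p under 0.05 and 0 by DESeq2 and limma-voom; Strap, encoding a receptor-associated protein, had 269.6 ± 20.05 and 278 ± 13.8 CPM (adjusted p = 0.768), and Smad4, the common partner, had 142 ± 4.10 and 137 ± 6.88 CPM.

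Of 12 tested genes of latency and activation, 2 fell and 1 rose. Ltbp4 and Ltbp1 encode latent TGF-beta binding proteins, which anchor the latent ligand in the matrix. Ltbp4 fell by 0.77 on the log2 scale (SE 0.17, adjusted p = 0.0122), from 65.8 ± 6.38 CPM to 38.6 ± 16.5 CPM, and its OCA libraries A, B and C had 29.3, 57.7 and 28.8 CPM. Without OCA B its log2 fold change was -1.18. Its call did not hold without OCA A (adjusted p = 0.0871), OCA C (0.0695) or DMSO A (0.0918), with DESeq2 (0.194) and with robust estimation (0.311). Ltbp1 fell by 0.40 (SE 0.11, adjusted p = 0.0435), with means of 117 ± 14 CPM and 89.1 ± 19.6 CPM, a call kept only without OCA B (adjusted p = 7.83e-06) among the fits that left out 1 library, with adjusted p between 0.0714 and 0.267 in the others, and lost with DESeq2 (0.291), robust estimation (0.29) and length and density offsets (0.139). Its groups overlapped. The member that rose was Itgb3, which encodes the beta chain of an integrin that binds latent TGF-beta, by 0.35 on the log2 scale (SE 0.08, adjusted p = 0.0103), with 110 ± 10.5 CPM in DMSO and 140 ± 9.30 CPM under OCA; its call was lost without OCA A (adjusted p = 0.0531) or DMSO C (0.0821). Thbs1, encoding thrombospondin 1, an activator of the latent ligand, had 1321 ± 116 and 1225 ± 151 CPM (adjusted p = 0.584).

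Other intracellular inhibitors had 2 of 14 tested members higher and none lower, with 3 lower at an unadjusted p under 0.05 and 0 lower by DESeq2. Tgif2, a homeodomain corepressor that binds Smads, rose by 0.75 on the log2 scale (SE 0.09, adjusted p = 2.16e-05), from 28.9 ± 0.880 CPM to 48.8 ± 3.15 CPM. Smad6, the inhibitory Smad that acts mainly on bone morphogenetic protein signals, rose by 0.49 (SE 0.06, adjusted p = 7.01e-05), from 109 ± 4.33 CPM to 154 ± 5.88 CPM. Both were called in all 6 fits that left out 1 library. Ncor1, the most abundant of the list and a nuclear receptor corepressor, had 324 ± 18.2 and 342 ± 10.1 CPM (adjusted p = 0.573; 0.0371 with length and density offsets). Smad7 made up 46.2% ± 2.24 of the summed Smad6 and Smad7 level per length in DMSO and 34.2% ± 2.14 under OCA (SD, n = 3). Genes listed as extracellular inhibitors had 0 of 5 tested members called, with 2 lower at an unadjusted p under 0.05 and 0 by DESeq2 and limma-voom. The most abundant of this list, Fstl1, which encodes a follistatin-like protein, had 740.0 ± 62.7 and 712 ± 41.5 CPM (adjusted p = 0.755). Whether Fstl1 inhibits TGF-beta signals in these cells was not tested. The proteoglycan gene Bgn had 566 ± 69.6 and 443 ± 96.7 CPM (adjusted p = 0.0878, and 0.000454 without OCA B). Genes listed as ubiquitin-related positive regulators of TGF-beta signals had 0 of 6 called. Of these, 1 was lower at an unadjusted p under 0.05 by edgeR, and DESeq2 and limma-voom called 0. Usp4, a deubiquitinase gene and the most abundant of them, had 242 ± 4.03 and 257 ± 3.09 CPM (adjusted p = 0.480).

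Of 20 early response genes of TGF-beta, 2 fell and none rose, with 2 higher and 5 lower at an unadjusted p under 0.05 and 0 higher and 3 lower by DESeq2. The lower count was 1 without OCA A or OCA C and 5 with length and density offsets. Snai1 fell from 60.5 ± 2.86 to 41.6 ± 6.02 CPM, and Klf10, the TGF-beta-inducible early gene, by 0.38 on the log2 scale (SE 0.08, adjusted p = 0.00741), with means of 105 ± 5.12 CPM and 80.5 ± 9.06 CPM. The Klf10 call was lost without OCA A (adjusted p = 0.0547) or OCA C (0.0553). Ccn2, the connective tissue growth factor gene, listed in the table under its older symbol Ctgf, had 693 ± 70.8 and 649 ± 29.5 CPM (adjusted p = 0.572). Its groups overlapped.

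Of 14 tested matrix and myofibroblast response genes, 4 fell, 1 rose and 9 did not pass. By sign alone, 5 log2 fold changes lay above 0 and 9 below. Among those that did not pass were Acta2 (log2 fold change 0.09, adjusted p = 0.601) and Tagln (0.11, adjusted p = 0.515). The metalloprotease genes Adam19 (285 ± 2.62 to 217 ± 19.0 CPM, log2 fold change -0.39, adjusted p = 0.00201) and Adam12 (87.4 ± 6.66 to 64.9 ± 7.23 CPM, log2 fold change -0.43, adjusted p = 0.00483) fell and were called in all 6 fits that left out 1 library. Col1a2, a chain of type I collagen, had 292 ± 20.7 CPM in DMSO and 221 ± 39.0 CPM under OCA and was called lower (adjusted p = 0.0173); leaving out OCA A (adjusted p = 0.122), OCA C (0.111), DMSO A (0.079) or DMSO B (0.0662) ended the call, as it ended with robust estimation (0.058), while the partner chain Col1a1 had 956 ± 96.3 and 812 ± 178 CPM (adjusted p = 0.276; without OCA B 0.0056). Fn1, the fibronectin gene, had 179 ± 35.6 and 111 ± 50.5 CPM; its groups overlapped, and its call (adjusted p = 0.0403) was kept only without OCA B (1.8e-09) among the fits that left out 1 library, which otherwise gave between 0.0701 and 0.266, and was lost with DESeq2 (0.377), robust estimation (0.427) and length and density offsets (0.126). Tgfbi, a secreted matrix protein induced by TGF-beta, rose from 115 ± 11.3 to 137 ± 5.80 CPM (adjusted p = 0.0491), a call kept only without DMSO B (0.0194) among those fits, with 0.0627 to 0.216 in the others, and lost with upper-quartile scaling (0.056) and length and density offsets (0.075). Vim, encoding the intermediate filament vimentin, had 869 ± 107 and 965 ± 33.6 CPM and did not pass (adjusted p = 0.374; without DMSO B 0.0316). The lists hold genes that earlier work on these libraries had named, so their counts are not independent evidence of a direction.

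**Figure D5:**
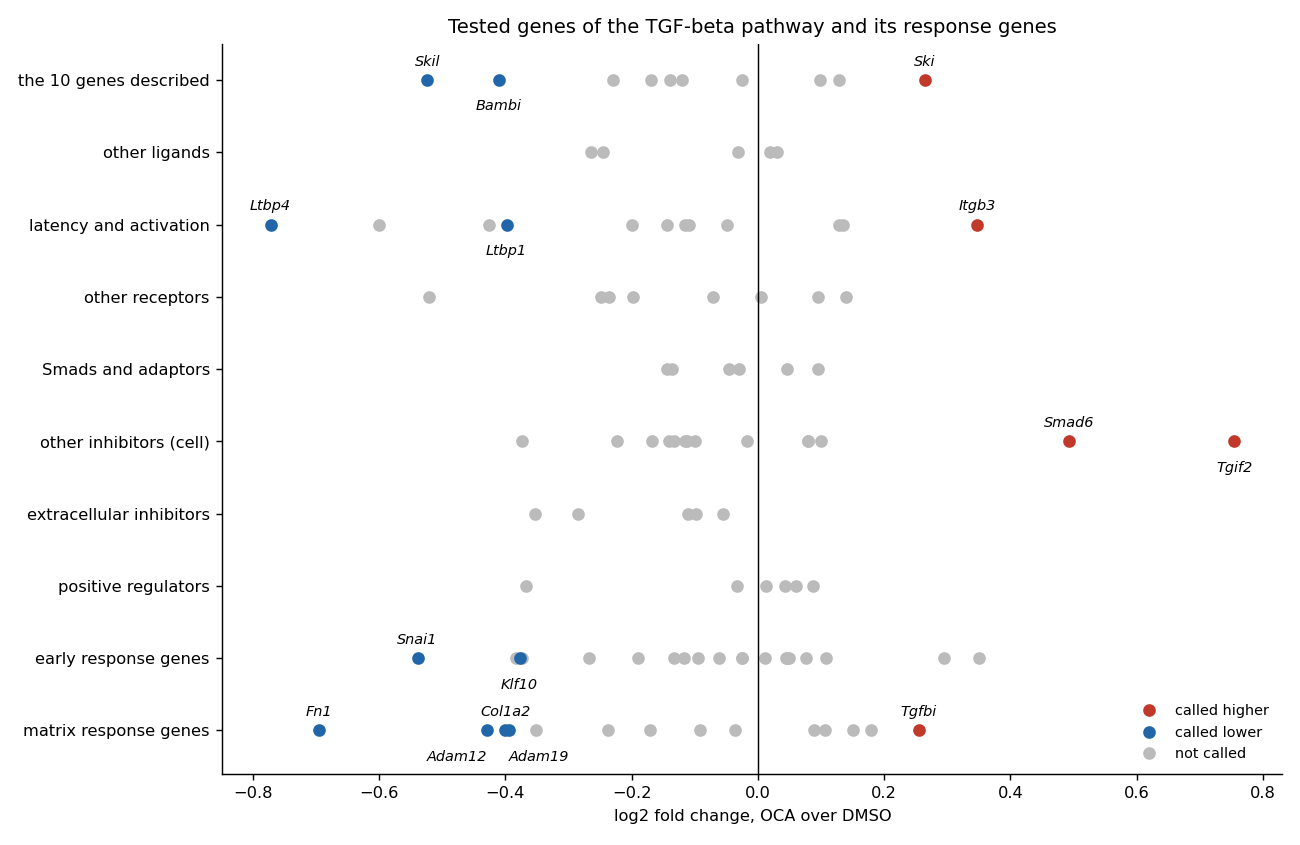
Log2 fold change of OCA over DMSO (horizontal axis) for every tested gene of each list (rows); red points were called higher, blue lower and grey not called at an adjusted p under 0.05. Among inhibitors, Skil and Bambi are called lower and Ski, Smad6 and Tgif2 higher. The Ski call was kept in only 1 of the 6 fits that left out 1 library. Tgif1 and Ldlrad4 stand in 2 rows because they belong to 2 lists.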

How the data were processed

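Polyadenylated RNA of 6 libraries was sequenced. The authors deposited 1 table of estimated counts over exons, not normalized, per the file headers. Its values were found to be in steps of 0.5. The submitters' processing notes name STAR, HOMER and mm10. Each row gives a RefSeq transcript, its coordinates and its exonic length, per the file headers, with strand and multimapping settings not given in the sources used here. In each column 26.5% to 29.8% of values were not whole. Counts were rounded to whole numbers for tests and left as deposited for CPM and ratios. Genes were tested with edgeR 4.0.16 under R 4.3.3 (TMM scaling after filterByExpr, glmQLFit without robust estimation, two-sided glmQLFTest, no replicate block); SE is the log2 fold change over the square root of F. Ratios used counts plus 0.5 on the log2 scale. Alternatives included DESeq2 1.42.0 and limma-voom (limma 3.58.1). Replicates differed beyond sampling noise (chi-square per degree of freedom from 4.40 to 8.02). Named were the 10 genes, the called genes of each list with its most abundant other gene and up to 2 more of its 3 most abundant others, those 2 picked with their values known, and the 5 genes most similar to each called gene. Acta2, Tagln and Ptprb were named in addition, with their values known. The 10 genes and all lists were chosen with earlier results of these data known. A gene of the early response list is not reported here by name.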

Additional observations from a re-analysis of the deposited data

How the results depend on the processing

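Skil and Bambi were called lower, and Ski kept its direction, under every alternative run: DESeq2, limma-voom, 3 other scalings, 3 other filters, robust estimation, length and density offsets, leaving out OCA B and DMSO A, and leaving out each library. The number of the 10 genes called higher was 0 without OCA B and DMSO A and from 0 to 1 when 1 library was left out. Without 1 library, the genes called over the transcriptome numbered 161 to 363 higher and 104 to 758 lower, Tgfb1 had log2 fold changes from -0.045 to 0.016 and Tgfb2 from -0.044 to 0.159. In the same fits Eng ranged from -0.051 to 0.097, Fstl1 from -0.097 to 0.016 and Strap from -0.0047 to 0.102. Eng was also -0.0063 with upper-quartile scaling, -0.0026 without TMM, -0.0015 with no low-count filter, -0.0502 with length and density offsets and -0.099 without OCA B and DMSO A; the last 2 gave -0.019 and -0.031 for Strap. The cause was not tested. Lower genes numbered 703 with no low-count filter and 605 without OCA B and DMSO A. The same-letter libraries did not deviate together (correlations 0.00051, -0.04 and 0.05), and no block was used in the main fit. With 3 libraries a group, such correlations cannot settle whether a letter marks a shared isolation or animal. With the replicate block, 1 of the 10 genes was higher and 2 lower. Over the transcriptome 306 genes were then higher and 508 lower, against 276 and 384 without the block. The ratios kept their direction with a pseudocount of 1, in the paired form and without any 1 library. With 3 libraries a group, intervals such as that of Pmepa1 (-0.0059 to 0.26) span a wide range, and a missed threshold does not show that a level was the same.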
